A study of Mus musculus with 6 samples.

Results

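C-type lectins are sugar-binding receptors that dendritic cells and macrophages use to take up glycoproteins, microbes and dying cells. Some, such as Dectin-1, signal through Syk and the adaptor Card9, others borrow an adaptor chain such as the Fc receptor gamma chain, and others mainly deliver their cargo for antigen presentation. In skin they are also used to tell antigen-presenting cells apart: langerin (Cd207) marks Langerhans cells, Clec9a marks conventional type 1 dendritic cells, and the Mgl and Cd209 lectins are best known from dermal CD11b+ dendritic cells and dermal macrophages. The genes described here are Cd209a, Cd209d, Cd207, Clec10a, Mgl2, Clec4n, Clec7a, Clec12a and Clec9a, 9 of the 49315 genes in a count table of regulatory T cells (Tregs). The 9 were chosen by measured values, the counts of these same libraries, which had shown several of them far higher in skin. Their skin and lymph node levels are therefore given as a description, without a test.

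The study compared Tregs from skin with Tregs from skin-draining lymph nodes (SDLNs), with 3 libraries of each. All mice carried Foxp3-GFP, a reporter that makes Foxp3-expressing cells fluorescent, were 9 days old and were untreated as far as the labels say, and each sample pooled 3 biological replicates, so a library is no single animal. Live CD45+ CD4+ Foxp3-EGFP+ cells were sorted, a gate that should leave out most dendritic cells and macrophages. All libraries had the same batch number, and the tissue field named skin for the lymph node samples too, so groups were taken from the titles. Nothing says which lettered column belongs to which numbered sample.

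The libraries stood apart in ways that bear on every value below. Totals ran from 3748669 to 11741784 counts in skin and from 47243498 to 116158706 in SDLN, and 2911 to 5317 genes reached 1 count-per-million (CPM, of the library total) in skin against 12397 to 13002 in SDLN. Foxp3, the transcription factor used for the sort, had 0, 330 and 1 counts in the libraries called skin A, B and C here against 1788 to 12208 in SDLN, so 2 of the 3 skin libraries went against their label for this gene. Cd4 had 0, 1861 and 2 counts in skin A, B and C. Other T cell genes were present: 8 of the 12 genes on a T cell and Treg list (Cd3d, Il2ra, Ctla4 and others) were over 3 counts in every skin library, and the list summed to 5666 to 8752 CPM in skin and 10980 to 11120 CPM in SDLN. Since 0 counts are compatible with as many as 3, genes with none may still reach 0.800, 0.255 and 0.332 CPM in skin A, B and C or 0.0258, 0.0412 and 0.0635 CPM in SDLN A, B and C. Values at or below 3 counts are called at the floor, and these limits cover counting error only. In bulk samples, fewer cells of a type and less RNA per cell cannot be told apart.

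Most of these lectins lie in gene clusters (mouse genome GRCm38, positions from GENCODE M21). Cd209a (ENSMUSG00000031494, chr8:3743397-3748984) and Cd209d (ENSMUSG00000031495, chr8:3871824-3878555) lie in the Cd209 cluster. Mgl2 (ENSMUSG00000040950, chr11:70130329-70137550) and Clec10a (ENSMUSG00000000318, chr11:70156197-70170834) are neighbours. Clec12a (ENSMUSG00000053063, chr6:129342691-129365303), Clec9a (ENSMUSG00000046080, chr6:129408862-129424763) and Clec7a (ENSMUSG00000079293, chr6:129461591-129472779) lie together, with Clec4n (ENSMUSG00000023349, chr6:123229843-123247021) and Cd207 (ENSMUSG00000034783, chr6:83671215-83677857) elsewhere on the same chromosome. The 250 bases before the RefSeq start of the gene are shown for 3 lectins that were read in skin and for langerin, which was not, from RefSeq on GRCm38.p6, 5′ to 3′ on the gene's own strand. The windows are chr8:3748985-3749234 (minus strand) for Cd209a, chr11:70130107-70130356 (plus strand) for Mgl2, chr6:129472780-129473029 (minus strand) for Clec7a and chr6:83677858-83678107 (minus strand) for Cd207. The RefSeq start of Mgl2 lies inside the gene as GENCODE places it, so the last bases of its window are within that gene model. Capitals mark matches on either strand to GAGGAA, a core of the site of the myeloid factor PU.1, to TTGCNNAA, a C/EBP-type site, or to TATAAA, the TATA box.
Cd209a: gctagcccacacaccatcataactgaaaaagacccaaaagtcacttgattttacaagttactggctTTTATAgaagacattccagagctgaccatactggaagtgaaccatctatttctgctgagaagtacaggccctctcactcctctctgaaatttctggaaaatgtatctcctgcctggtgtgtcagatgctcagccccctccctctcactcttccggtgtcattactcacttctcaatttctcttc
Mgl2: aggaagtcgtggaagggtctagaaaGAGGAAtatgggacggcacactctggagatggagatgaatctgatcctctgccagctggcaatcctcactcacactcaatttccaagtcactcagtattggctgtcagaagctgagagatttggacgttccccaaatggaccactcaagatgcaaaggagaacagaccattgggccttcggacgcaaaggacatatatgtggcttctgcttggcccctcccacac
Clec7a: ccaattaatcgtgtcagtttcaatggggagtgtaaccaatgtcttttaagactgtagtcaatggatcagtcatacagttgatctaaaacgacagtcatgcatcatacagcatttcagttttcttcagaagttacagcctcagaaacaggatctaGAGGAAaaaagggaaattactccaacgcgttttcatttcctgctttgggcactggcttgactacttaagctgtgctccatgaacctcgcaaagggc
Cd207: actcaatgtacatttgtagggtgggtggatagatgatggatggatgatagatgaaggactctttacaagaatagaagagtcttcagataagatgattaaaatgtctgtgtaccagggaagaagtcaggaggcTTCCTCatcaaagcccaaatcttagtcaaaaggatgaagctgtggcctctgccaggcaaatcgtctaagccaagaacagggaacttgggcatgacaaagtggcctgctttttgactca
RefSeq windows were found for 7 of the 9 genes, all but Clec10a and Clec4n. GAGGAA was in 5 of these 7 (Cd209d, Cd207, Mgl2, Clec7a and Clec12a), against 23.4% of 32536 windows of the same length. TATAAA was in 2 (Cd209a and Clec9a), against 12.3%, and TTGCNNAA in 1 (Clec12a), against 9.6%. The langerin window held the same PU.1 core as those of Mgl2 and Clec7a although langerin had no reads in any library. These are matches of letters and not measured binding sites.

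6 of the 9 lectins were read in all 3 skin libraries and 3 were at 0 in all of them. Cd209a, Mgl2, Cd209d, Clec10a, Clec7a and Clec4n were each over 3 counts in every skin library. Cd207, Clec12a and Clec9a had no count in skin. Summed over the 9 genes, the level was 3908, 3215 and 2279 CPM in skin A, B and C and 2.24, 6.88 and 7.26 CPM in SDLN A, B and C. The mean sum was 3134 ± 817 CPM for skin libraries and 5.46 ± 2.80 CPM for SDLN libraries (SD, n = 3 each), a ratio of 574. The lectins thus made up 0.391%, 0.321% and 0.228% of all counts in the skin libraries. For 5 of the 9 genes all skin libraries lay above all SDLN libraries, where 2.39% of the 13572 tested genes did so. The choice of these genes used this contrast, so nothing is read from that count. The filter on low counts that precedes the test kept the 6 genes read in skin and left out Cd207, Clec12a and Clec9a.

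**Figure D1:**
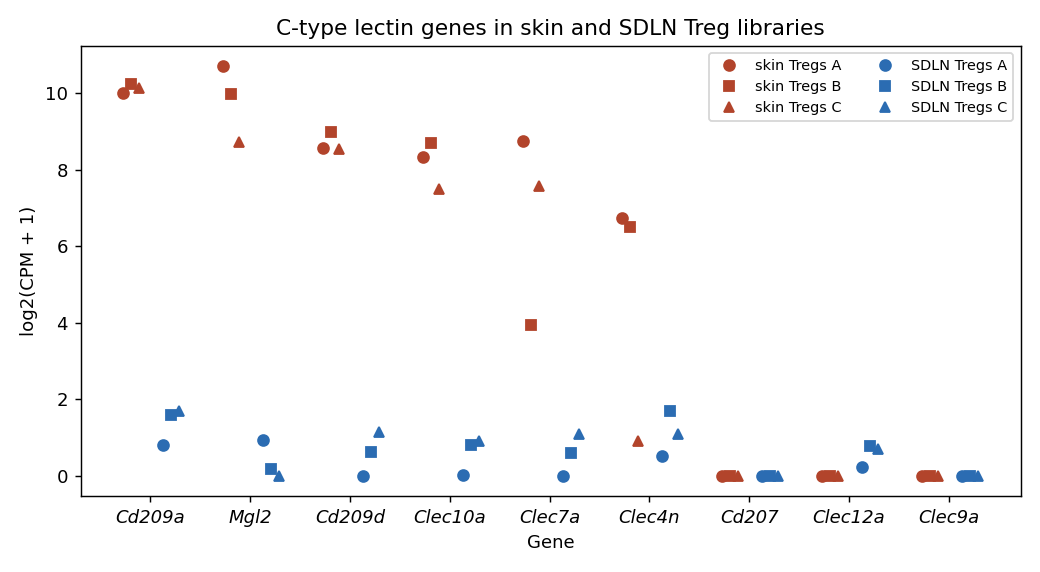
Level of the 9 C-type lectin genes in each library, as log2(CPM + 1), with skin Tregs in red and SDLN Tregs in blue and 1 symbol per library letter. Cd209a, Mgl2, Cd209d and Clec10a lie far above the SDLN libraries in every skin library, Clec7a and Clec4n have 1 low skin library each, and Cd207, Clec12a and Clec9a lie at 0 in skin.

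Cd209a, the mouse gene named for the human lectin DC-SIGN and a receptor for mannose- and fucose-containing glycans, was the steadiest of the group. It had 3812, 14036 and 10093 counts in skin A, B and C and 85, 146 and 106 counts in SDLN A, B and C. These are 1017, 1195 and 1117 CPM in skin and 0.732, 2.01 and 2.24 CPM in SDLN. The skin libraries lay close together although their totals differed, and no SDLN library came near them. The coefficient of variation (CV, SD over mean) of Cd209a over the skin libraries was 8.06%, and 19 of 2325 genes with a skin mean of at least 100 CPM, or 0.817%, had a lower one. The median CV of those genes was 92.0%.

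Cd209d, which encodes the related receptor SIGNR3, had 1424, 5896 and 3329 counts in skin A, B and C, while SDLN A, B and C had 0, 40 and 58. Its level was 380, 502 and 368 CPM in skin and 0, 0.549 and 1.23 CPM in SDLN. As with Cd209a, the spread within skin was narrow, with a CV of 17.8%. Within each skin library the counts of Cd209d and Cd209a stood in a similar ratio, 0.374, 0.420 and 0.330 in skin A, B and C. The longest transcripts of the genes aligned with 67.3% identity over 843 bases and shared no stretch of 100 identical bases.

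Clec10a and Mgl2 encode the macrophage galactose-type lectins MGL1 and MGL2 (CD301a and CD301b), receptors for galactose and N-acetylgalactosamine residues that are widely used to mark dermal CD11b+ dendritic cells and macrophages. Clec10a had 1201, 4821 and 1625 counts in skin A, B and C, which are 320, 411 and 180 CPM. In SDLN A, B and C it had 1, 54 and 41 counts, at most 0.868 CPM. Every skin library was well above every SDLN library.

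Mgl2 had 6212, 11786 and 3823 counts in skin A, B and C, which are 1657, 1004 and 423 CPM. In SDLN it had 105, 9 and 0 counts, or 0.904, 0.124 and 0 CPM. Here the skin libraries differed more, and skin A, with the smallest total, was the highest. The Clec10a to Mgl2 count ratio was 0.193, 0.409 and 0.425 in skin A, B and C. These genes are close copies: their longest transcripts aligned with 94.4% identity over 755 bases, and 5.92% of the 100-base windows of Mgl2 and 4.08% of those of Clec10a were found in the other. Only uniquely assigned reads were counted, so reads from those stretches may count for neither gene and their exact levels are uncertain.

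Clec7a, the beta-glucan receptor Dectin-1, and Clec4n, the alpha-mannan receptor Dectin-2, varied most. Clec7a had 1602, 167 and 1711 counts in skin A, B and C, while SDLN A, B and C had 0, 38 and 54. As CPM these are 427, 14.2 and 189 in skin and 0, 0.522 and 1.14 in SDLN. Skin B held the most genes of the 3 skin libraries yet the least Clec7a, though still more than any SDLN library.

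Clec4n had 398, 1045 and 8 counts in skin A, B and C, while SDLN A, B and C had 50, 162 and 54. Its level was 106, 89.0 and 0.886 CPM in skin and 0.430, 2.23 and 1.14 CPM in SDLN. The groups overlapped, since skin C lay below 2 of the 3 SDLN libraries. With all libraries drawn down to 3748669 counts, skin C kept 2 counts of Clec4n, at the floor, and 5 of the 9 lectins were then over the floor there.

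Clec12a, an inhibitory receptor of monocytes, granulocytes and dendritic cells that binds uric acid crystals, was the reverse case. It had 0 counts in all skin libraries and 19, 52 and 30 counts in SDLN A, B and C, or 0.164, 0.714 and 0.635 CPM. The groups did not overlap, as was the case with SDLN higher for 53.6% of the tested genes, and Clec12a itself fell below the filter of the test. A gene at 0.714 CPM would lie below the 0.800 CPM that a count of 0 allows in skin A, so the difference was not detectable at the depth of that library. In skin B and C a count of 0 allows 0.255 and 0.332 CPM, below the levels of SDLN B and C but above that of SDLN A. At 3748669 counts the SDLN libraries held 0, 1 and 4 counts of it.

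Langerin and Clec9a were at 0 in all 6 libraries. Langerin forms the Birbeck granules of Langerhans cells, and Clec9a (DNGR-1) recognises actin filaments of dead cells on conventional type 1 dendritic cells. A count of 0 allows them at most 0.800 CPM in the shallowest skin library, against 180 to 1657 CPM for the Cd209a, Cd209d, Clec10a and Mgl2 levels. Of genes whose mean skin level lay between those of Clec4n and Cd209a (65.4 to 1110 CPM), 36.8% of 3133 were over 3 counts in all 3 skin libraries, and of 2325 genes with a skin mean of at least 100 CPM 48.6% were. A count at or under 3 in at least 1 skin library was thus common for genes at such levels.

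Per length, Cd209a was the most abundant of the lectins in skin. Mean levels per kilobase of exon were 701 ± 56.5 CPM per kb for Cd209a, 491 ± 295 for Mgl2, 454 ± 80.6 for Cd209d, 105 ± 40.1 for Clec10a, 79.7 ± 78.6 for Clec7a and 46.0 ± 39.8 for Clec4n (SD, n = 3 each). Mgl2 could not be set apart from its neighbours in this order: its libraries ran from 202 to 791 CPM per kb and covered those of Cd209a and Cd209d. Cd209a lay above Cd209d in each library. Clec10a, Clec7a and Clec4n overlapped one another.

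The make-up of the summed lectin counts shifted between skin libraries. Mgl2 gave 42.4%, 31.2% and 18.6% of it in skin A, B and C, and Cd209a gave 26.0%, 37.2% and 49.0%. Clec7a gave 10.9% and 8.31% in skin A and C and 0.442% in skin B. In the SDLN libraries, at the far lower level given above, Cd209a gave 32.7%, 29.1% and 30.9% in SDLN A, B and C, while Clec4n, the smallest of the lectins read in skin, gave 15.7% to 32.3%.

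Other C-type lectins of myeloid cells, which were not part of the chosen group, were tested across the table with edgeR. This list too was chosen with earlier results of these data known, so its calls are no independent support. A list of 29 such genes was searched, of which 10 passed the filter on low counts, and 3 of them were higher in skin and 3 were higher in SDLN at an adjusted p under 0.05. Among all 13572 tested genes 1.04% were higher in skin and 45.3% higher in SDLN. The median log2 fold change, skin over SDLN, was 5.94 for the 10 lectins and -2.21 for all tested genes. The 10 lectins went both ways, and Cd209e, Mrc1 and Clec4a2 passed the filter only through the skin libraries, so nothing is read from these medians. The 3 genes higher in skin were the only ones of the 29 over 3 counts in every skin library, while 18 were at the floor in all 3.

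Cd209e, which encodes the related receptor SIGNR4, lies between Cd209a and Cd209d. It had 7665, 11190 and 5777 counts in skin A, B and C, while SDLN A, B and C had 0, 0 and 21. Its means were 1212 ± 738 and 0.148 ± 0.257 CPM (n = 3 each), and the log2 fold change was 12.74 ± 3.18 (SE, adjusted p = 0.0189). In CPM per kb of exon its skin mean, 673 ± 409, was next to that of Cd209a, and the difference was within the spread of Cd209e.

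Mrc1, the mannose receptor CD206 of macrophages, had 4276, 3159 and 2709 counts in skin A, B and C, while SDLN A, B and C had 0, 0 and 5 (log2 fold change 13.66 ± 2.87, adjusted p = 0.0103). Clec4a2, the inhibitory receptor DCIR, had 2755, 2349 and 879 counts in skin and 32, 6 and 6 in SDLN (10.72 ± 1.57, adjusted p = 0.00351). For both, all skin libraries lay above all SDLN libraries. Cd209e, Mrc1 and Clec4a2 were each called in all 10 alternative fits without a block that tested them.

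The 3 lectins higher in SDLN all had 0 counts in skin. Ly75 (DEC-205), an endocytic receptor of dendritic cells that lymphocytes also carry, had 0 counts in skin and 4544, 5328 and 1899 in SDLN A, B and C, a mean of 50.8 ± 19.4 CPM (adjusted p = 0.00605). Clec2d, a ligand of natural killer cell receptors, had 0 counts in skin and 7.91 ± 3.62 CPM in SDLN (adjusted p = 0.00401). Cd302 had 0 counts in skin and 0.942 ± 0.381 CPM in SDLN (adjusted p = 0.00896). The SDLN mean of Cd302 was close to the 0.800 CPM that a count of 0 allows in skin A.

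A further 8 lectins appeared in 1 or 2 skin libraries and were not called or not tested. Clec4a1 had 1520, 0 and 1347 counts in skin A, B and C (adjusted p = 0.181) and Cd209f had 0, 904 and 1010 (adjusted p = 0.116). Clec4d, the Dectin-3 gene, was read in skin A alone with 846 counts. Clec5a, a receptor that pairs with the adaptor DAP12, was read in skin C alone with 1935 counts. Such counts in 1 library beside 0 in the others show no level for the group. Cd209c, Colec12, Clec4a3 and Cd209b were each over 3 counts in 1 skin library. Without skin A, Cd209f was called higher in skin and Clec4a3, then at 0 in skin, higher in SDLN (adjusted p = 0.0316 for Clec4a3).

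**Figure D2:**
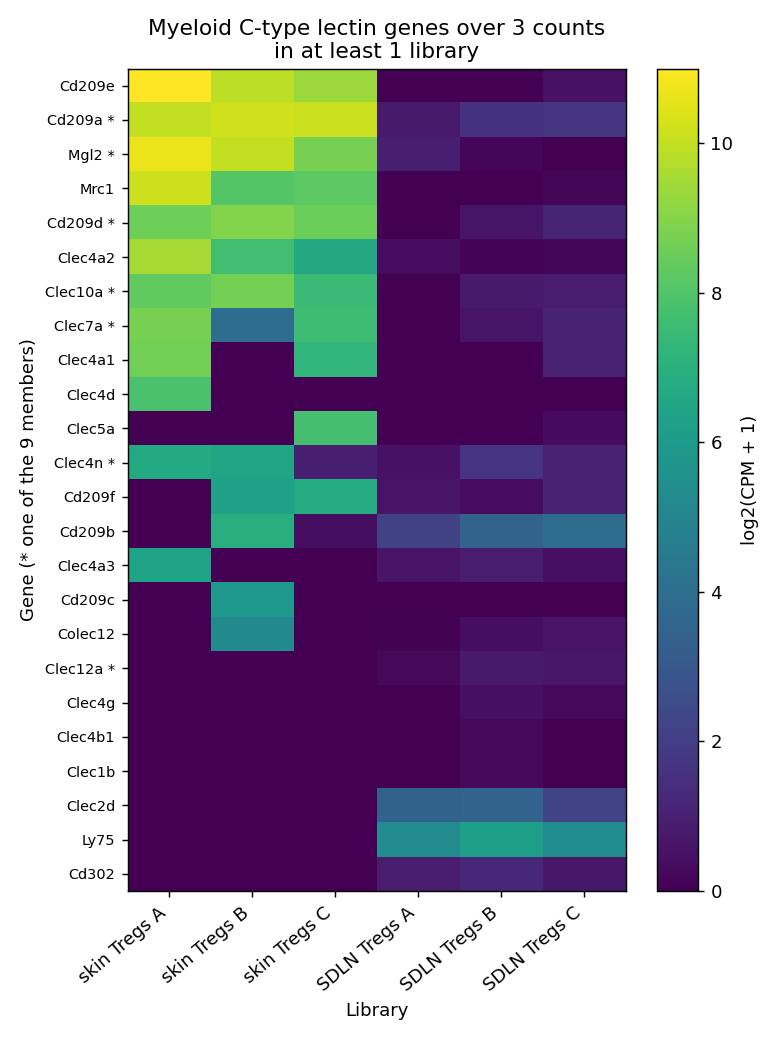
Level as log2(CPM + 1), from dark (0) to bright, of the 24 myeloid C-type lectin genes over 3 counts in at least 1 library, ordered by mean skin CPM, with asterisks on the 7 chosen genes among them (Cd207 and Clec9a, at 0 throughout, are left out). Cd209e, Cd209a, Mgl2, Mrc1, Cd209d, Clec4a2 and Clec10a are bright in all skin libraries, while Ly75 and Clec2d are read in SDLN alone.

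The Cd209 cluster was read unevenly. Taking the lower end of Cd209a as 0, Cd209e starts 104568 bases and Cd209d 128427 bases further on, and these 3 genes averaged 1110, 1212 and 417 CPM in skin. Further along, Cd209b averaged 39.4 CPM, Cd209c 19.2 CPM and Cd209f 62.9 CPM, none of them over 3 counts in all skin libraries, and Cd209g was at 0. In SDLN the order was another one: Cd209b, the SIGNR1 gene known from macrophages of lymph node medulla and splenic marginal zone, had 405, 733 and 646 counts in SDLN A, B and C, a mean of 4.29 ± 2.44 CPM per kb of exon against 1.05 ± 0.514 CPM per kb for Cd209a. In skin it had 0, 1384 and 3 counts and was not called different (adjusted p = 0.678). This rests on skin B: without that library Cd209b was called higher in SDLN, with a log2 fold change of -5.31 (adjusted p = 0.0241). Levels of Cd209f are uncertain, since 29.2% of its 100-base windows are also found in Cd209g.

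**Figure D3:**
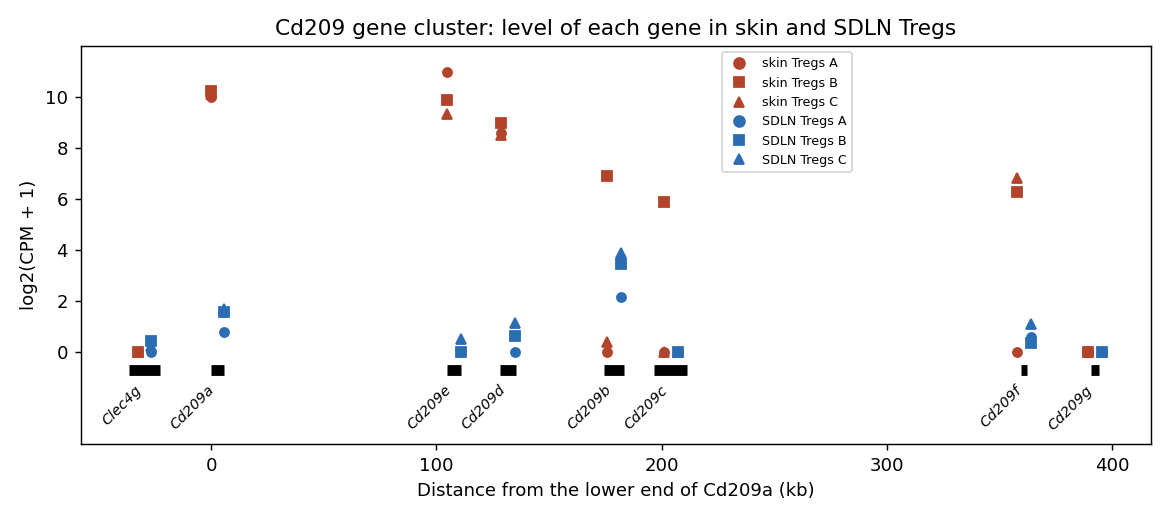
Level as log2(CPM + 1) of each gene of the Cd209 cluster and of Clec4g, placed by distance in kb from the lower end of Cd209a (black bars are the genes), with skin Tregs in red, SDLN Tregs in blue and 1 symbol per library letter. Cd209a, Cd209e and Cd209d are high in all 3 skin libraries, and Cd209b is read in all 3 SDLN libraries but over 3 counts in skin B alone of the skin libraries.

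The other clusters were read in part too. Of the 9 protein-coding genes within 100 kb of Mgl2, Clec10a alone was over 3 counts in every skin library, and of the 10 around Clec10a, Mgl2 and Rnasek were. Around Clec4n 1 of 5 was, namely Clec4a2. Around Clec7a none of 8 protein-coding neighbours was over 3 counts in every skin library, Clec12a and Clec9a among them, and around Cd207 none of 6 was. GENCODE M21 lists Clec7a itself as a polymorphic pseudogene, a gene intact in some strains alone.

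The receptors need partner proteins to signal. Of 16 signalling genes 2 were higher in skin and 4 higher in SDLN, or 8 higher in SDLN without skin C. Of all 13572 tested genes 1.04% were higher in skin and 45.3% in SDLN, so nothing is read from the number of SDLN calls. Fcer1g, the Fc receptor gamma chain with which Dectin-2 pairs, had 1048, 3347 and 2578 counts in skin A, B and C, while SDLN A, B and C had 278, 227 and 128. Its means were 283 ± 3.27 and 2.74 ± 0.363 CPM, and the log2 fold change was 6.70 ± 1.05 (adjusted p = 0.00395). The skin libraries were nearly equal in this gene. Tyrobp (DAP12) had 1836, 1235 and 72 counts in skin, and its log2 fold change of 5.68 ± 1.82 (adjusted p = 0.0466) was no longer called when any 1 of the SDLN libraries was left out or the filter was dropped, where the adjusted p reached 0.199 at most.

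Some downstream genes of the Dectin pathway were sparse in skin, while the signalling gene Prkcd had 2637, 1560 and 161 counts in skin A, B and C. Syk, the kinase of that pathway, had 178, 0 and 0 counts in skin A, B and C, while SDLN A, B and C had 715, 306 and 183 (adjusted p = 0.840). Without skin A, and so with 0 counts in skin, Syk was called higher in SDLN (adjusted p = 0.00581). Card9 had 0 counts in all skin libraries and 3.17 ± 2.22 CPM in SDLN (adjusted p = 0.0126). Plcg2 and Src, also at or under 3 counts in every skin library, were higher in SDLN as well (adjusted p = 0.00368 and 0.00378). Of all 6142 genes higher in SDLN, 5801 were at the floor in every skin library.

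The lectins read in skin are best known from dermal CD11b+ dendritic cells and macrophages, and langerin and Clec9a, at 0 throughout, from Langerhans cells and conventional type 1 dendritic cells, so other markers of each of these cells were examined. Which cells held the lectin transcripts was not tested and cannot be read from bulk libraries. Dermal macrophage markers were most often called higher in skin among these lists. Of 20 such genes 12 were tested and 10 were higher in skin, with a median log2 fold change of 7.33. Among them edgeR called 0 higher in SDLN (0 at an unadjusted p under 0.05, and 0 with DESeq2). Of all 13572 tested genes 1.04% were higher in skin and 45.3% in SDLN, and these shares stand beside every list below. The lists were chosen with earlier results of these data known. Some macrophage genes, such as Mrc1 and Pf4, passed the filter through the skin libraries alone. The list summed to 5939, 4206 and 3466 CPM in skin A, B and C against 153 to 316 CPM in SDLN. Mrc1 is on this list as well as among the other lectins. The part of such cells in the lectin levels was not tested.

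The macrophage genes included F13a1, the coagulation factor XIII subunit gene, with means of 930 ± 629 CPM (skin) and 23.9 ± 6.84 CPM (SDLN, log2 fold change 5.14 ± 0.62, adjusted p = 0.00322). The complement gene C1qc was at 394 ± 190 and 3.68 ± 1.01 CPM (adjusted p = 0.00401) and the chemokine gene Pf4 at 164 ± 30.4 and 0.112 ± 0.0242 CPM (adjusted p = 0.00380). Ms4a7 (adjusted p = 0.00491), C1qb (0.00732), Ccl8 (0.00940) and C1qa (0.0257) were higher as well, though C1qa was not called when any 1 of the SDLN libraries was left out (adjusted p of up to 0.173) and C1qb not without SDLN A (0.0504). Csf1r, the receptor of the macrophage growth factor, had 161, 6995 and 4554 counts in skin A, B and C (adjusted p = 0.0120, and 0.0577 without SDLN C).

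Adgre1, the F4/80 gene, had 3168, 7464 and 1 counts in skin and overlapped with SDLN. Its adjusted p was 0.0429, and it was called in 3 of 10 alternative fits (up to 0.285), the call being lost when any 1 library other than skin C was left out. Other defining macrophage markers were uneven: Cd163 had 1991, 233 and 0 counts in skin and 0 in SDLN, Folr2 had 439, 0 and 415 counts in skin, Fcgr1 (CD64) had 0, 1124 and 0, Mertk was at or under 3 counts in every skin library, and Lyve1 was at 0 in every library.

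Markers of conventional type 2 and dermal CD11b+ dendritic cells were mixed. Of 10 genes 9 were tested, 2 were higher in skin and 2 in SDLN, and the list summed to 1178, 495 and 844 CPM in skin against 135 to 198 CPM in SDLN. Klf4, a transcription factor needed by a subset of these cells and also used by macrophages, averaged 100.5 ± 17.1 CPM in the skin libraries and 0.228 ± 0.135 CPM in the SDLN libraries (log2 fold change 8.77 ± 1.68, adjusted p = 0.00718, and up to 0.0811 without SDLN A or B). Ear2, a ribonuclease gene, had 1283, 1244 and 358 counts in skin and 0, 0 and 1 in SDLN (adjusted p = 0.00932). Sirpa had 0, 2803 and 3127 counts in skin and was not called (adjusted p = 0.135), though 2 of 10 alternative fits called it higher in skin. Itgam, which encodes CD11b itself, and Zbtb46, a transcription factor of conventional dendritic cells, had 0 counts in all skin libraries and were higher in SDLN (adjusted p = 0.00486 and 0.00495). Flt3, the growth factor receptor of dendritic cells, had 5 counts in skin B and 0 in the others.

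Markers of conventional type 1 dendritic cells, the cells known for Clec9a, were split as well. Of 10 genes 7 were tested, Naaa, an amide-cleaving enzyme, was higher in skin (330 ± 215 against 6.20 ± 1.76 CPM, adjusted p = 0.00633) and Xcr1 and Wdfy4 were higher in SDLN (adjusted p = 0.0117 and 0.00866). Xcr1, the chemokine receptor that defines these cells, had 0 counts in skin and 339, 257 and 42 in SDLN A, B and C, and Wdfy4 had 1, 0 and 0 counts in skin. Batf3, a transcription factor these cells need, had 476 counts in skin A, 0 in skin B and 467 in skin C, against 0, 25 and 5 in the SDLN libraries, so both groups held a library at 0. It was not called (log2 fold change 8.45, edgeR adjusted p = 0.113), but was called higher in skin by DESeq2's Wald test (adjusted p = 0.000952) and without skin B (log2 fold change 9.03, adjusted p = 0.0249). The list summed to 1169, 560 and 309 CPM in skin and 205 to 348 CPM in SDLN.

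Langerhans cell genes gave 0 calls in either direction by edgeR, 3 of 8 being tested and 0 having an unadjusted p under 0.05, with 0 calls by DESeq2. Other fits made calls: limma voom called Epcam higher in SDLN, Epcam and Mfge8 were called higher in SDLN without skin B (adjusted p = 0.00635 and 0.00731), and Hpgds higher in skin without skin A (adjusted p = 0.0331). Beside langerin, Cldn1 was at 0 in every library and Cdh1, the E-cadherin gene, at 0 in skin. Epcam had 0, 595 and 2 counts in skin A, B and C and 1455 to 2839 in SDLN. The list summed to 0, 242 and 253 CPM in skin and 71.6 to 84.4 CPM in SDLN.

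Genes that most antigen-presenting cells share were higher in skin in part. Of 10 such genes 6 were higher in skin and by edgeR and DESeq2 0 in SDLN (0 at an unadjusted p under 0.05, though Ciita was called there without skin C), with Cd74, H2-Aa, H2-Ab1, H2-Eb1 and H2-DMb1 of the MHC class II pathway at an adjusted p of 0.00322 each and Cst3 at 0.0313 (called in 4 of 11 alternative fits). Itgax, the CD11c gene, had 990 counts in skin B and 0 in the others (adjusted p = 0.267). Of 10 genes of mature or migratory dendritic cells, Cd83 was higher in skin (adjusted p = 0.0360, called in 3 of 11 alternative fits) and Nudt17, Fscn1, Relb and Cacnb3 were higher in SDLN (adjusted p = 0.00333, 0.00368, 0.0112 and 0.0213, Cacnb3 being called in 4 of 7 alternative fits and lost with limma voom, without skin A and without skin C). Ccr7, the receptor that guides cells to lymph nodes, had 859, 2401 and 1 counts in skin (adjusted p = 0.866). Of monocyte genes Lyz2 and Ccr2 were higher in skin (adjusted p = 0.00322 and 0.0172, Ccr2 in 5 of 11 alternative fits). Ly6c2 and Plac8, at 0 counts in skin, were higher in SDLN (adjusted p = 0.00330 and 0.00322). Cd83 and Ccr2 also averaged 512 and 164 CPM in the SDLN libraries, where Csf1r and Itgam averaged 2.22 and 1.43 CPM. Their higher skin levels thus cannot be assigned to dendritic cells or monocytes, and which cells held them was not tested.

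**Figure D4:**
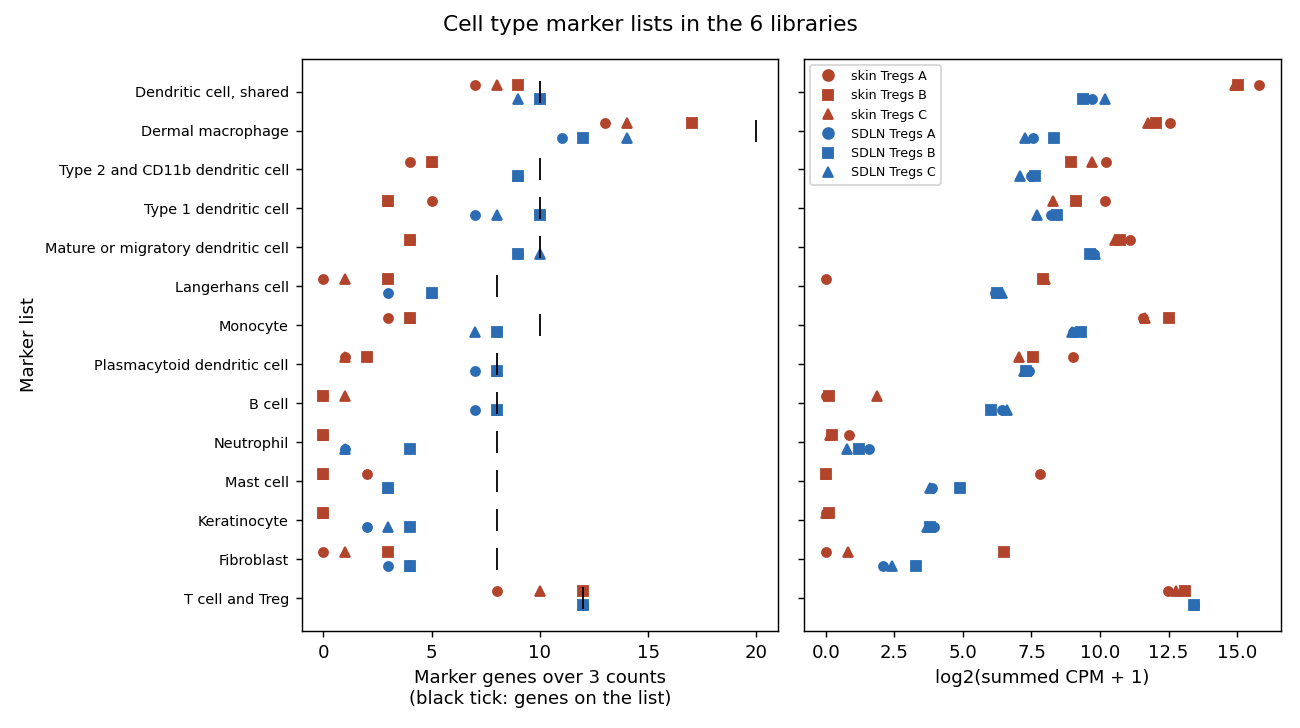
Left, the number of marker genes over 3 counts in each library for 14 cell type lists, with a black tick at the number of genes on the list. Right, the log2(summed CPM + 1) of each list, with skin Tregs in red, SDLN Tregs in blue and 1 symbol per library letter. In summed level, the dendritic cell shared, dermal macrophage, type 2 and CD11b dendritic cell, mature or migratory dendritic cell and monocyte lists lie higher in all skin libraries, the B cell, T cell and keratinocyte lists lie lower in all of them, and the other lists overlap.

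Of lists of other cell types, edgeR and DESeq2 called 0 genes higher in skin (0 at an unadjusted p under 0.05 by edgeR). The exception among the alternatives was Tcf4 of plasmacytoid dendritic cells without skin A (adjusted p = 0.0174). Plasmacytoid dendritic cell genes had 4 higher in SDLN (Ly6d, Siglech, Ccr9 and Pacsin1) and B cell genes 5 (among them Cd79a). Mast cell genes had 2 (Kit and Hdc), keratinocyte genes 2 (Krt10 and Perp) and fibroblast genes 1 (Dpt). All of these were at or under 3 counts in every skin library. Since 45.3% of all tested genes were higher in SDLN, nothing is read from these numbers. Pacsin1 averaged 81.8 CPM in SDLN and Siglech 1.41 CPM, and which cells held them was not tested. No neutrophil gene, S100a8 included, passed the filter. The mast cell gene Cma1 had 811 counts in skin A and 0 elsewhere, and Cpa3 had 32 counts in skin A. On the T cell and Treg list Ctla4 was higher in skin (adjusted p = 0.0447, called in 2 of 11 alternative fits), Trbc2 was higher in SDLN (adjusted p = 0.0307, called in 4 of 11), and Cd3e had 0, 1757 and 2646 counts in skin (adjusted p = 0.551).

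The genes whose pattern over the 6 libraries was most like that of each lectin were often other lectins or macrophage genes. Likeness was measured as the distance between centred log2(CPM + 1) values over 5915 tested genes with a skin mean of at least 10 CPM, as a description. Near to Cd209a were Cd209d (0.893), Il1b (0.978), Clec10a (1.65) and Wfdc17 (1.67). For Cd209d they were Cd209a (0.893), Clec10a (0.923) and Wfdc17 (1.28), and for Clec10a Cd209d (0.923), Ms4a7 (1.16) and Gm49339 (1.32). Cd209a, Cd209d and Clec10a were thus among one another's nearest genes, with the exception that Cd209a was not among the 3 nearest of Clec10a.

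The lectins with uneven skin levels had other neighbours in pattern. Mgl2 was most like Hspa1a (0.877), a chaperone gene whose reads can be shared with its copy Hspa1b, then Il1b (1.26) and Cd209e (1.27), all of them highest or nearly so in skin A. Clec4n was most like Lrp5 (1.14), Tnfsf9 (1.27) and Ifi204 (1.48), which like Clec4n were low in skin C. Clec7a was nearest to the complement gene C1qa (1.54), then Ccl8 (2.21) and BC028528 (2.31). C1qa had 293, 16.9 and 181 CPM in skin A, B and C beside 427, 14.2 and 189 CPM for Clec7a.

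Within a library, ratios between lectins also showed which kept step. Clec7a had 0.420, 0.0119 and 0.170 counts for each count of Cd209a in skin A, B and C, and Clec4n had 0.104, 0.0745 and 0.000793. Mrc1 had 1.12, 0.225 and 0.268 and Cd209e 2.01, 0.797 and 0.572. Compared with these, the Cd209d to Cd209a ratio moved little.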

How the data were processed

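Bulk RNA-seq libraries of 3 skin Treg and 3 SDLN Treg samples were analysed. The authors trimmed reads with Trimmomatic 0.36, mapped them to GRCm38 with STAR 2.5.2b and counted unique exon reads with featureCounts (Subread 1.5.2). They deposited raw counts per Ensembl gene, without normalization. The annotation release and strand setting are not given in the sources used here, so values of overlapping genes are uncertain, and no molecular identifiers are described. GENCODE M21 named 49056 of 49315 genes.

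Tests used edgeR 4.0.16 in R 4.3.3 (glmQLFit with robust estimation, glmQLFTest, filterByExpr, TMM, tissue as the only term), which kept 13572 genes. P-values were adjusted over all of them with the Benjamini-Hochberg method at a threshold of 0.05, and SEs came from the F statistic. Log2 fold changes are skin over SDLN. P-values measure the spread between these pooled samples.

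The lectins and the 17 gene lists were chosen with earlier results of these data known. List genes that passed the test were named, up to 10 per list by smallest adjusted p, with defining markers whatever their value. Some genes that this rule or the likeness measure named are not reported here. Alternatives were DESeq2 1.42.0 (size factors and Wald test), limma 3.58.1 voom with quality weights, omission of the filter, a minimum of 10 counts in all 6 libraries, and leaving out each library. A fit with the column letter as a block was added after seeing the data.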

Additional observations from a re-analysis of the deposited data

How the results depend on the processing

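Of 65 alternative values of the counts and sums 56 kept their direction and stayed within 1.5 times (counts) or 1 SD (sums) of the values given. The other C-type lectins higher in skin numbered 3, and 5 with the DESeq2 Wald test, which added Cd209f and Clec4a1. The signalling genes higher in skin numbered 2, and 1 without the filter. Over fits that left out 1 library they ranged from 1 to 3, with 1 (Fcer1g) without any of SDLN A, B or C, and the cause was not tested. Signalling genes higher in SDLN numbered 4, ranged from 3 to 8 when 1 library was left out (8 without skin C) and were 0 with at least 10 counts in every library. Macrophage genes higher in skin ranged from 7 to 12 over all alternatives without a block. With DESeq2 size factors, scaled by the mean library total, the mean summed lectin level was 1497 in skin and 2.571 in SDLN, against 3134 and 5.46 CPM. Both groups fell by a similar factor, so the contrast between them changed little. With at least 10 counts in every library no other C-type lectin was left to test. The numbers of the labels could not be used for pairing, since columns are lettered. With the column letter as a block, chosen after seeing the data, 2 other C-type lectins (Cd209e and Mrc1), 3 macrophage genes (Mrc1, F13a1 and Csf1r) and 0 signalling genes were higher in skin, against 3, 10 and 2, with 0 signalling genes at an unadjusted p under 0.05. Over 13572 genes, deviations from the group mean correlated at 0.0219, -0.0192 and 0.07 between libraries lettered A, B and C, and skin A and B did not correlate best with their own letter, which does not show whether the letters mark shared mice. Counts of alternative fits given above leave this one out. Depth limits most what is said of skin A, where up to 0.800 CPM can go unread.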
